A study of Mus musculus with 48 samples.

Results

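The sites described here are the A-to-I editing sites of Blcap, the mouse gene of bladder cancer associated protein. They were all rows of the deposited tables assigned to that gene, 8 of 48715 sites, whatever their annotation. Of the 8 sites, 3 recode the protein, 1 is synonymous, 1 lies in the 5′ UTR and 3 are intronic. Only 4 of them exceeded 100 reads in any library, out of 7339 such sites in the series. Editing was measured by mmPCR-seq, in which cDNA around known editing sites is amplified with pooled primers and sequenced. The 48 libraries were from brain, heart, kidney, liver, small intestine, spleen, thymus and bone marrow (BM) of C57BL/6 mice aged 12 weeks, with 3 libraries per genotype and tissue. The controls were Adar1+/+ Ifih1-/- (WT) and the mutants Adar1E861A/E861A Ifih1-/- (E861A), so every animal of both groups lacked Ifih1, which encodes the RNA sensor MDA5. The E861A change is carried in every cell and leaves an ADAR1 protein that binds RNA but does not deaminate it, while the second editing enzyme, ADAR2, is intact in both genotypes. The tissues were homogenised whole, so a level averages over cell types, and a smaller share of editing cells cannot be told apart from less editing per cell. The assay reads editing at chosen loci and not expression, so the tissue labels could not be checked against marker genes.

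ADAR enzymes convert adenosine to inosine in double-stranded RNA, and inosine is read as guanosine by the ribosome and by reverse transcriptase. The editing level of a site is therefore the percentage of reads with G where the genome has A. Blcap encodes a small, highly conserved membrane protein, and its transcript is a known recoding target of both ADAR1 and ADAR2, edited near its start codon where the exon pairs with the adjacent intron. Recoding means that the edited codon specifies another amino acid.

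All 8 sites lie on the minus strand of chromosome 2 (mm9, NCBIM37). The protein is encoded by 87 codons in 1 coding exon, whose first coding base is at 157383889. The Tyr-to-Cys site at 157383885 is the middle base of codon 2, which changes from TAT to TGT (Y2C, counting codons from the start codon). The Gln-to-Arg site at 157383876, 9 bases downstream, changes codon 5 from CAG to CGG (Q5R). The Lys-to-Arg site at 157383846, 39 bases downstream of the Tyr-to-Cys site, changes codon 15 from AAG to AGG (K15R). The 5′ UTR site at 157383896 lies 11 bases upstream of the Tyr-to-Cys site. The synonymous site at 157383773 is in codon 39 (GAA to GAG). The intronic sites at 157384376, 157384381 and 157384391 lie 313 to 328 bases beyond the exon boundary.

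The exon around the start codon and the intronic stretch that holds the intronic sites can be aligned as opposite strands of a duplex, and both are shown because they hold 6 of the 8 sites. Both are read 5′ to 3′ on the transcribed strand of the mm9 genome, with the listed editing sites in capitals. In the exon, the capitals are the 5′ UTR, Tyr-to-Cys and Gln-to-Arg sites in that order:
chr2:157383876-157383905 (minus strand): ctgcccggcAgagatcatgtAttgcctccA
chr2:157384362-157384391 (minus strand): AggaggcgatAcatgAtctctgctgggcag
In the best alignment without gaps between this intronic stretch and the exon around the start codon, 27 of the 30 bases formed Watson-Crick pairs, 2 formed G-U wobbles and 1 was unpaired, and the longest uninterrupted Watson-Crick run was 15 bases. The Tyr-to-Cys and 5′ UTR adenosines stood opposite a U (T in the genome). The Gln-to-Arg adenosine was the unpaired base and stood opposite the adenosine of the intronic site at 157384391. This is a description of the sequence, and no structure was measured. The Lys-to-Arg site lies outside this stretch, in the following sequence with the edited base in capitals:
chr2:157383836-157383856 (minus strand): ctcatccccaAgcccctcaac
These 21 bases occur at 1 further place in the genome, on the minus strand of chromosome 1 with an A at the matching position, 46068822, so reads from there could have been counted at the Lys-to-Arg site. The 21 bases centred on each other site occur nowhere else.

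Coverage differed widely between libraries and between sites. It is a count of amplified reads and not a measure of Blcap expression. The Tyr-to-Cys site had 14 to 1511 reads (median 853), the Gln-to-Arg site 9 to 5904 (median 2430), the Lys-to-Arg site 0 to 5517 (median 2230) and the 5′ UTR site 14 to 1503 (median 845). In the 46 libraries with more than 100 reads at the Gln-to-Arg site, the Tyr-to-Cys coverage was 0.373 times the Gln-to-Arg coverage in the median and ranged from 0.0223 to 1.03 times. Some reads that cover Gln-to-Arg thus do not cover Tyr-to-Cys, only 9 bases away, and the levels of the 2 sites rest partly on different reads. More than 100 reads were present in 44 libraries at the Tyr-to-Cys and 5′ UTR sites and in 46 at the other recoding sites. WT brain replicate 2, WT BM replicate 2, E861A brain replicate 1 and E861A liver replicate 1 fell below that at the Tyr-to-Cys site. The synonymous site had at most 15 reads, and the intronic sites had 0 reads in all 48 libraries, so no level is given for them. Over all sites, summed coverage was 1861831 to 11394093 per library, and no library pair had identical coverage at every site. The amplified reads carry no molecular identifiers, and the intervals below (Wilson, 95%) cover counting error only.

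**Figure D1:**
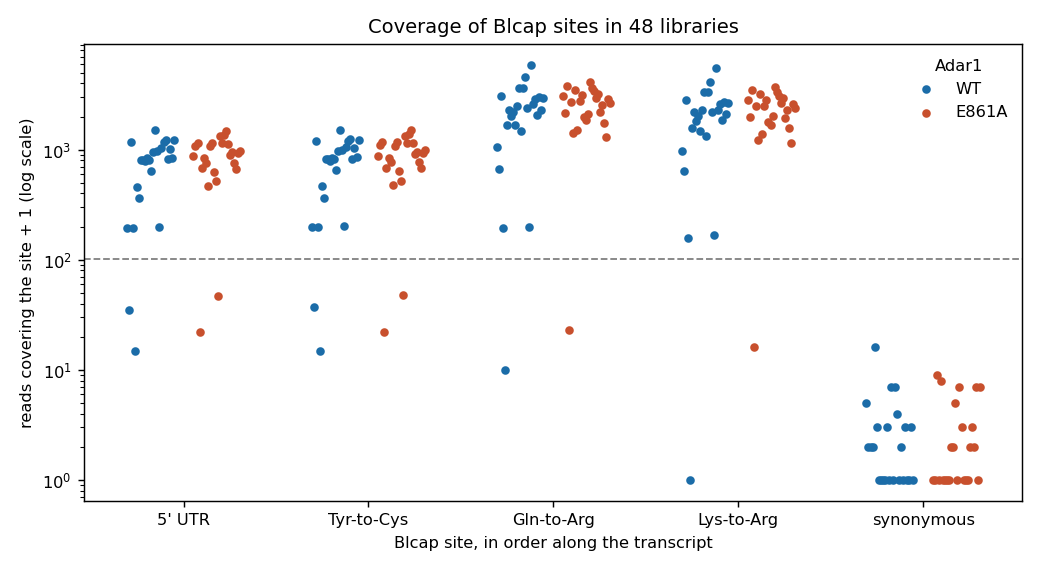
Reads per library (plus 1, log axis) at 5 Blcap sites, 1 point per library, with WT in blue and E861A in red; the dashed line marks the minimum of more than 100 reads. The Tyr-to-Cys and 5′ UTR sites have similar coverage, the Gln-to-Arg and Lys-to-Arg sites have more, and every library lies below the line at the synonymous site.

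The Tyr-to-Cys site had the highest single level of the recoding sites, and the level differed widely between libraries of the same genotype and tissue. It was above 1% in 7 of 22 covered WT libraries, from 6 tissues, and in 2 of 22 covered E861A libraries, from 2 tissues. All other covered libraries were at or below 0.473% in WT and 0.294% in E861A. The reads of the covered libraries together gave 3.47% of 18276 in WT and 0.824% of 21106 in E861A. These sums weight libraries by their reads and carry no test. Without E861A brain replicate 2, which gave 150 of the edited reads, the E861A sum was 0.118%.

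In the brain, the Tyr-to-Cys level was 0% in WT replicate 1 (0 of 198 reads, which allows up to 1.52%) and 23.8% in WT replicate 3 (110 of 463, interval 20.1 to 27.8). In E861A brain it was 21.8% in replicate 2 (150 of 687, interval 18.9 to 25.1) and 0.118% in replicate 3. Each genotype thus had 1 high and 1 low covered brain library, and the groups overlapped. In BM, WT replicate 1 was at 56.3% (111 of 197, interval 49.4 to 63.1) and WT replicate 3 at 0% (0 of 1186, which allows up to 0.253%), while the E861A libraries were at 0.115%, 0.0913% and 0.0852%. The high WT BM library was the highest covered value at any Blcap site, and the limit of the low one includes all E861A libraries.

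In the kidney, the Tyr-to-Cys level was 12.8% (101 of 791, interval 10.6 to 15.3), 0.473% and 4.14% (34 of 822, interval 2.97 to 5.72) in WT and 0%, 0.157% and 0% in E861A. All measured WT kidney levels were above all measured E861A kidney levels, but the lowest WT library (interval 0.184 to 1.21) lay within the 0.575% that 0 of 522 reads allows in E861A replicate 3. In the small intestine, WT was at 10.6% (105 of 987, interval 8.87 to 12.7), 0% (0 of 202, which allows up to 1.49%) and 0.0946%, and E861A at 0.0725%, 0.0662% and 0.0873%. In the thymus, WT was at 7.4% (76 of 1027, interval 5.95 to 9.16), 0% and 0.0813%, and E861A at 0.294%, 0.213% and 0.101%. In the liver, WT was at 0.309%, 0.102% and 5.85% (88 of 1503, interval 4.78 to 7.16), and the covered E861A libraries at 0% and 0.173%. In these last 3 tissues 1 WT library was high and the others were in or near the range of E861A.

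In spleen and heart the Tyr-to-Cys site stayed low in both genotypes. All WT spleen libraries were at 0% (0 of 823 to 0 of 1246 reads, which allows at most 0.365%), and E861A spleen was at 0.217%, 0% and 0%. WT heart was at 0.277%, 0% and 0%, and E861A heart at 0.259%, 1.05% (5 of 476, interval 0.449 to 2.44) and 0%.

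**Figure D2:**
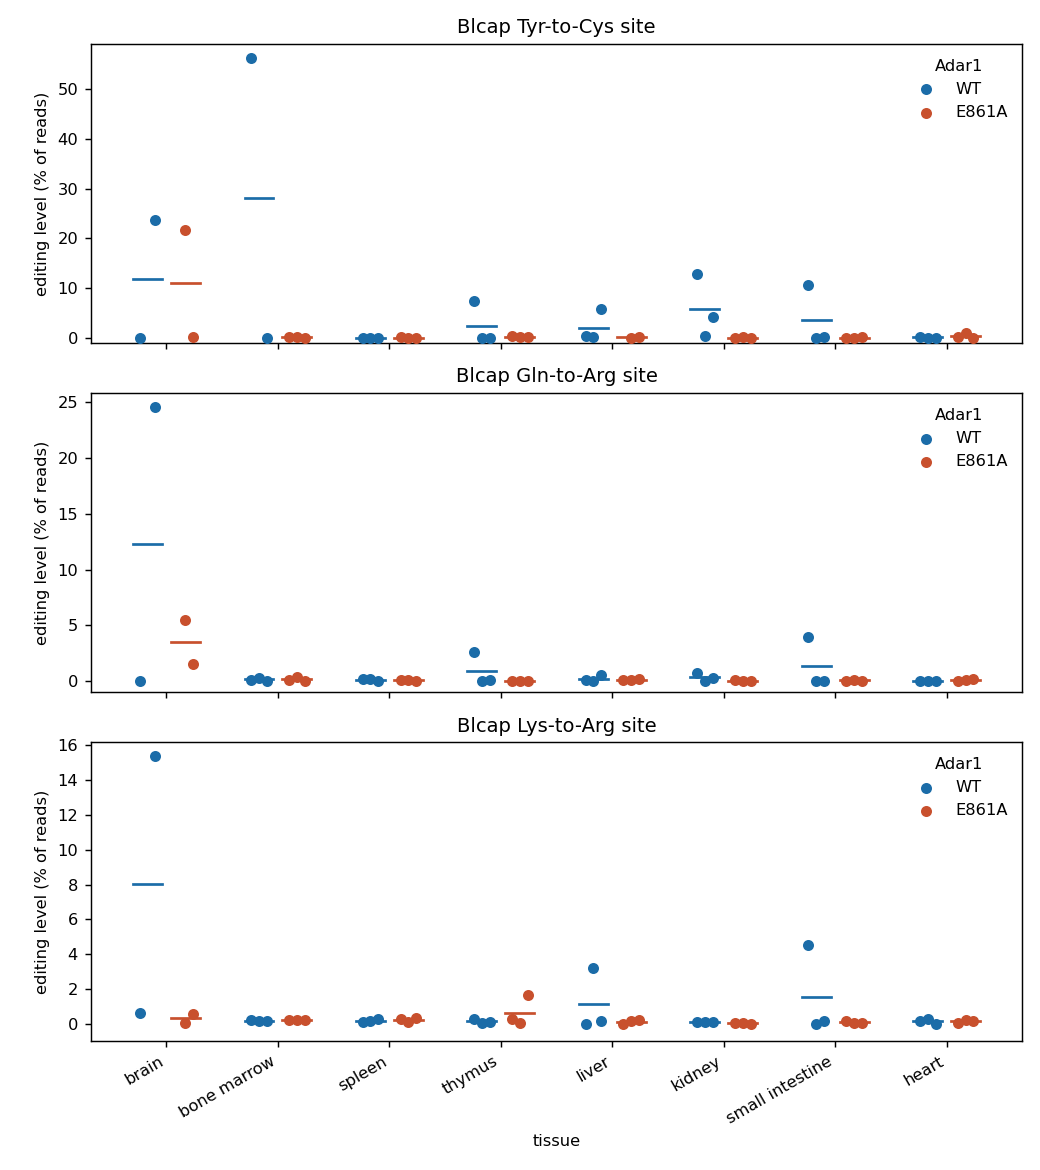
Editing level (percent of reads) of the Tyr-to-Cys, Gln-to-Arg and Lys-to-Arg sites by tissue, 1 point per library with more than 100 reads, WT in blue and E861A in red, with a bar at the group mean. High values are single libraries, such as WT BM at 56.3% for Tyr-to-Cys and WT brain at 24.6% for Gln-to-Arg, and most other points lie near 0.

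The Gln-to-Arg site was above 1% in 3 of 23 covered WT libraries and in 2 of 23 covered E861A libraries. The E861A libraries were both from the brain, at 5.5% in replicate 2 (of 2691 reads, interval 4.7 to 6.43) and 1.49% in replicate 3 (21 of 1408, interval 0.978 to 2.27). In WT brain the level was 0% in replicate 1 (0 of 192, which allows up to 1.56%) and 24.6% in replicate 3 (412 of 1673, interval 22.6 to 26.7), above both E861A libraries. WT small intestine was at 3.98% (95 of 2389, interval 3.26 to 4.84), 0% (0 of 196) and 0.0169%, and WT thymus at 2.63% (79 of 2999, interval 2.12 to 3.27), 0% and 0.0679%. Elsewhere no WT library was above 0.724% and no E861A library above 0.323%.

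The Lys-to-Arg site was above 1% in 3 of 23 covered WT libraries and in 1 of 23 covered E861A libraries. In WT brain it was 0.633% in replicate 1 (a single edited read) and 15.4% in replicate 3 (241 of 1568, interval 13.7 to 17.2), and in E861A brain 0.0802% and 0.574%. Both covered E861A brain libraries were below both covered WT libraries. WT small intestine was at 4.51% (99 of 2196, interval 3.72 to 5.46), 0% and 0.163%, and WT liver at 0%, 3.24% (108 of 3331, interval 2.69 to 3.9) and 0.146%. The E861A library above 1% was thymus replicate 3, at 1.67% (40 of 2398, interval 1.23 to 2.26), while the WT thymus libraries were at 0.297%, 0.0476% and 0.113%. The median level over covered libraries was 0.158% in WT and 0.16% in E861A.

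The 5′ UTR site was at or near 0 in every covered library of both genotypes, at a coverage close to that of the Tyr-to-Cys site. It had 0 edited reads of 18062 in the covered WT libraries, which allows up to 0.0166%, and 2 of 20831 (0.0096%) in E861A.

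Libraries above 1% at 1 recoding site were often not above it at the others. With all 3 sites covered in 22 libraries of each genotype, 8 WT and 4 E861A libraries were above 1% at 1 or more sites. Outside the brain these were 7 of 20 in WT and 2 of 20 in E861A. Among the WT libraries, 4 were above 1% at Tyr-to-Cys only, 1 at Lys-to-Arg only, 1 at Tyr-to-Cys and Gln-to-Arg, and 2 at all 3 sites. Those with all 3 were WT brain replicate 3 and WT small intestine replicate 1. In the 4 with Tyr-to-Cys only, Gln-to-Arg was at 0.724% and 0.25% in kidney, 0.552% in liver and 0.0956% in BM. Among the E861A libraries, each of the patterns Tyr-to-Cys only, Gln-to-Arg only, Lys-to-Arg only, and Tyr-to-Cys with Gln-to-Arg was seen in 1 library. Over the 44 libraries with all 3 sites covered, Pearson's r was 0.405 between Tyr-to-Cys and Gln-to-Arg, 0.324 between Tyr-to-Cys and Lys-to-Arg, and 0.937 between Gln-to-Arg and Lys-to-Arg. Spearman's rho of these pairs was 0.484, 0.204 and 0.155 in the same order. WT brain replicate 3 had the highest value of both Gln-to-Arg and Lys-to-Arg. These correlations are descriptive, since the sites share reads and libraries.

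The effect of the E861A mutation was tested at each site and tissue with limma on log2((level + 0.01)/(1 − level + 0.01)), a log2 ratio of edited to unedited reads. A site was tested where it had more than 100 reads in at least 2 of 3 libraries of both genotypes and a level above 1% in either genotype, taking the reads of its libraries together. The p-values were adjusted (Benjamini-Hochberg) over all edited sites of the tissue. Blcap sites met these conditions in 11 pairs of site and tissue, from 6 tissues, and in neither spleen nor heart. Of the 11 pairs, 9 exceeded the 1% limit in WT alone, 2 in both genotypes and 0 in E861A alone, so nothing is read from the direction of the changes as a group. All E861A values were lower than all WT values at 11.6% of all tested sites in brain, 42.4% in BM, 27.4% in thymus, 31.9% in liver, 41.9% in kidney and 13.1% in small intestine, and at the Blcap sites this was so for Lys-to-Arg in brain and Tyr-to-Cys in kidney. None of the 11 passed an adjusted p of 0.05 in limma or in a quasi-binomial model of the reads. Over all sites, the quasi-binomial model called 120 of 538 in BM, 39 of 677 in liver and 26 of 532 in kidney. It called 5 of 529 in thymus, 1 of 808 in brain and 0 of 413 in small intestine. Of the 11 pairs, 1 had an unadjusted limma p under 0.05, the Tyr-to-Cys site in the kidney.

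In the kidney, the Tyr-to-Cys level was 5.79% ± 6.31 (SD, n = 3) in WT and 0.0522% on average in E861A. The limma log2 change was −2.25 ± 0.867 (SE; 95% interval −4.29 to −0.215), with an unadjusted p of 0.0346 and an adjusted p of 0.127 over 532 sites. The median change of all tested kidney sites was −1.26. Of those sites, 17.1% passed the adjusted threshold, and 31.2% had an unadjusted p under 0.05, as this site did. Without WT replicate 3, 200 of 542 kidney sites passed. Without WT replicate 2, the WT kidney library at 0.473%, the change was −3.13 with a limma adjusted p of 0.0389, and with an offset of 0.001 in place of 0.01 it was −4.61 with an adjusted p of 0.0426. In these settings 55 of 484 and 125 of 532 kidney sites passed. Without WT replicate 1, the WT kidney library at 12.8%, the change was −1.42 (limma adjusted p = 0.206), and 55 of 469 kidney sites passed.

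In BM, where 27.0% of 538 sites passed and 32.3% had an unadjusted p under 0.05, the Tyr-to-Cys level was 28.2% ± 39.8 (SD, n = 2) in WT and 0.0972% in E861A. The log2 change was −3.37 ± 1.98 (SE; interval −8.31 to 1.56; limma adjusted p = 0.322), against a median of −1.3 over all tested BM sites. The WT mean rests on 1 library at 56.3% and 1 at 0%, and WT BM replicate 2 was treated as missing. The interval holds both no change and a large fall, and a limma fit over all 48 libraries, which called 253 of 538 BM sites, gave an adjusted p of 0.0487.

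In the brain, where 0 of 808 sites passed (12 of 624 without WT replicate 3) and 6.93% had an unadjusted p under 0.05, the Tyr-to-Cys mean was 11.9% ± 16.8 for WT and 11.0% ± 15.4 for E861A (SD, n = 2 each). The log2 change was 0.00524 ± 2.52 (SE; interval −6.81 to 6.82; limma adjusted p = 0.999). The Gln-to-Arg mean was 12.3% ± 17.4 in WT and 3.5% ± 2.83 in E861A (SD, n = 2 each), and the change was −0.482 ± 2.03 (SE; limma adjusted p = 0.94). The Lys-to-Arg change was −2.11 ± 1.52 (SE; interval −6.22 to 2; limma adjusted p = 0.701). A limma fit over all 48 libraries gave this site an adjusted p of 0.0206 and called 217 of 808 brain sites. The brain values treat WT replicate 2 and E861A replicate 1 as missing, and the intervals span falls and rises of many fold.

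In the other tissues the Tyr-to-Cys changes were −1.17 ± 1.03 in small intestine (limma adjusted p = 0.559), −1.02 ± 0.995 in liver (0.516) and −0.832 ± 0.877 in thymus (0.432), each with its SE. The median changes over all tested sites were −1.04, −1.02 and −1.19 in the same order. The share of sites that passed was 9.75% in liver (19.4% at an unadjusted p under 0.05), and 0 sites passed in small intestine or thymus, where 0.484% and 14.2% had an unadjusted p under 0.05. Without WT thymus replicate 3, whose mean over other edited sites was 0.993% against 5.08% and 10.5% in the other WT thymus libraries, 223 of 560 thymus sites passed. The liver share ranged from 15 of 590 sites without E861A replicate 3 to 123 of 662 without WT replicate 1. The Gln-to-Arg change in small intestine was −0.723 ± 0.721 (SE; limma adjusted p = 0.559). The Lys-to-Arg change was −0.776 ± 0.779 in small intestine (limma adjusted p = 0.559) and −0.612 ± 0.649 in liver (0.534), with SE. Every one of these intervals included 0. Each replicate was also left out in turn, where the site could still be tested. The Tyr-to-Cys change then ran from −1.81 to −1.17 in small intestine, −1.51 to −1.02 in liver and −1.38 to −0.769 in thymus. The Gln-to-Arg change ran from −1.12 to −0.706 in small intestine. The Lys-to-Arg change ran from −1.23 to −0.753 in small intestine and −1.0 to −0.529 in liver.

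**Figure D3:**
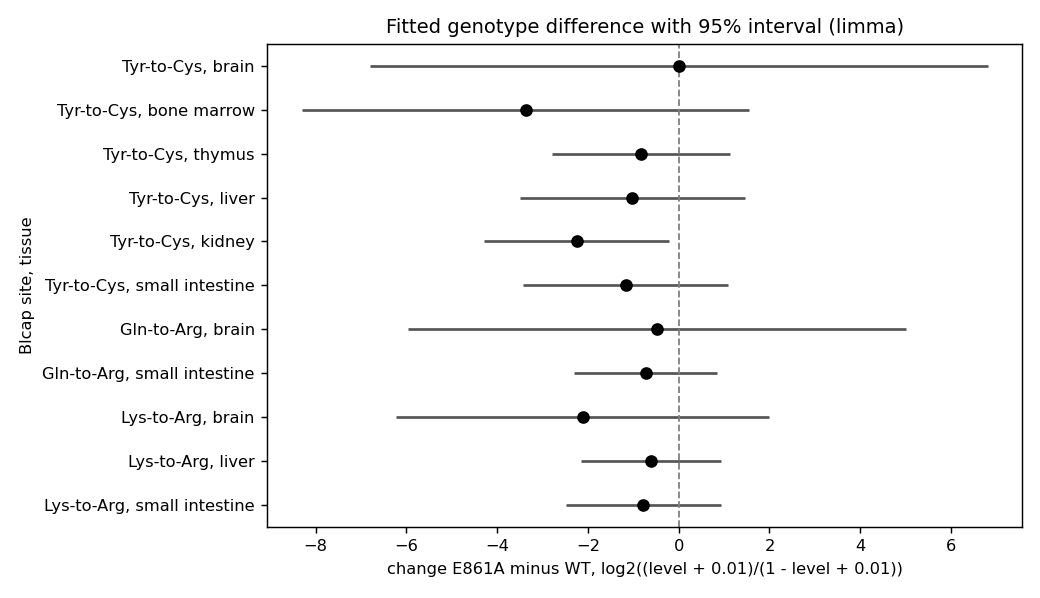
Limma log2 change (E861A minus WT, on the log2 ratio of edited to unedited reads) with its 95% interval for the 11 pairs of Blcap site and tissue that were tested. The kidney Tyr-to-Cys interval (−4.29 to −0.215) lies below 0, and the other intervals include 0.

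Whether the genotype effect at Blcap sites differed between the brain and each of the 7 other tissues was tested in limma as the interaction of genotype and tissue, from 12 libraries at a time. Of the 21 contrasts, 0 passed, with limma adjusted p from 0.517 to 0.984, and 0 had an unadjusted p under 0.05 (lowest 0.0946, the Lys-to-Arg site in the thymus). Over all sites compared, 2.99% passed for BM, 1.77% for spleen, 1.76% for kidney, 1.41% for liver, 0.492% for small intestine, 0.454% for thymus and 0.231% for heart. With the replicate number as a block, 0 or 1 site passed in each of these contrasts. With 2 covered brain libraries per genotype, a missed threshold does not show that the effects were equal.

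By mean WT level, the tissues followed the order BM (28.2% ± 39.8, n = 2), brain (11.9% ± 16.8, n = 2), kidney (5.79% ± 6.31), small intestine (3.58% ± 6.11), thymus (2.49% ± 4.25), liver (2.09% ± 3.26), heart (0.0923% ± 0.16) and spleen (0%) at the Tyr-to-Cys site, with SD and n = 3 where not given. Every pair of neighbours in this order overlapped. The Gln-to-Arg and Lys-to-Arg sites were both highest in WT brain (12.3% ± 17.4 and 8.0% ± 10.4, SD, n = 2), and small intestine was next for both, at 1.33% and 1.56%. A limma F test over the 24 WT libraries compared the 8 tissues, and 17.7% of the 840 sites tested passed. Among the Blcap sites 0 passed and 0 had an unadjusted p under 0.05, with F = 1.99 (limma adjusted p = 0.284) at Lys-to-Arg, 1.48 (0.428) at Gln-to-Arg and 0.906 (0.654) at Tyr-to-Cys.

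High levels in 1 WT library beside near 0 in another were common at other sites of the assay too. For this description, sites were taken that had all 3 WT libraries of a tissue covered and reached at least 5% in 1 of them, limits chosen after the values were seen. Outside Blcap, 66.0% of 2009 such pairs of site and tissue also had a WT library under 1%. The share was 45.7% in kidney, 48.7% in BM, 56.4% in brain, 58.9% in liver, 72.5% in spleen, 79.5% in thymus, 89.1% in heart and 96.8% in small intestine. At Blcap there were 4 such pairs, all at Tyr-to-Cys, in thymus, liver, kidney and small intestine, and all 4 had a WT library under 1%. In the 6 tissues with a WT library above 1% at Tyr-to-Cys, the library with the highest Blcap value was compared with the other covered WT libraries by the mean level of other edited sites. It ranked first in 4 tissues (brain, BM, kidney and small intestine, with only 2 covered libraries in brain and BM), second in thymus and last in liver. In brain and BM, the WT library not covered at Tyr-to-Cys had a higher mean. It was 12.0% against 11.7% in brain and 10.9% against 8.12% in BM. The first 2 kidney means were 8.04% and 7.99%. WT small intestine replicate 2, at 0 of 202 reads for Tyr-to-Cys, had a mean of 0.991% over other sites. Without it the log2 changes in small intestine were −1.81 at Tyr-to-Cys, −1.23 at Lys-to-Arg and −1.12 at Gln-to-Arg. The main values were −1.17, −0.776 and −0.723. None passed without it (limma adjusted p = 0.49 for each), and 2 of all 344 sites did. Why this library was low was not tested.

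**Figure D4:**
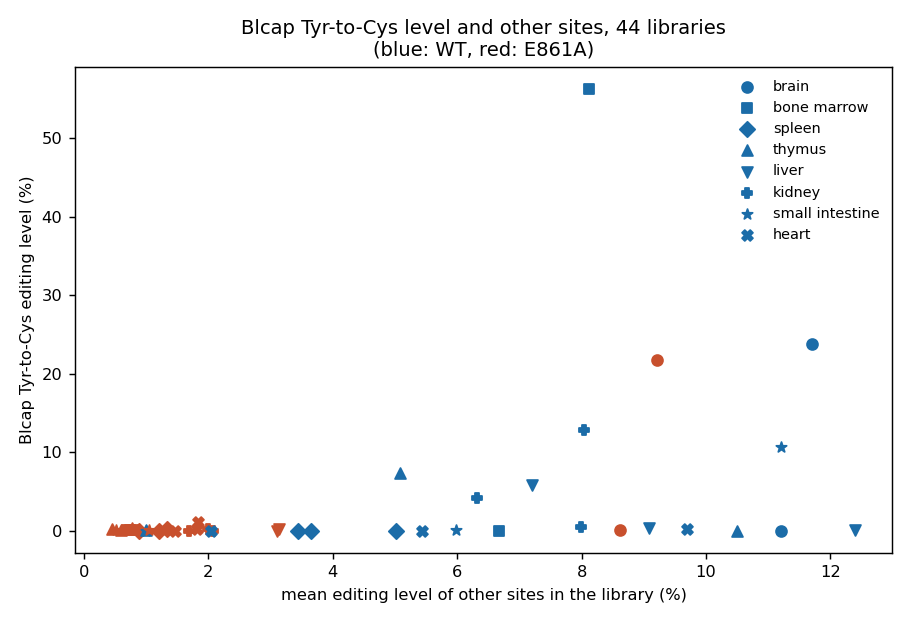
Blcap Tyr-to-Cys level (percent) against the mean level of the other edited sites in the same library (percent), for the 44 libraries with more than 100 reads at the Tyr-to-Cys site, WT in blue and E861A in red. The WT BM library at 56.3% has a mean of 8.12% at other sites, and the WT kidney libraries with means of 8.04% and 7.99% have Blcap levels of 12.8% and 0.473%.

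Among sites assigned to a gene, those outside Blcap with the library pattern most like Tyr-to-Cys, at most 1 per gene, lay in 3′ UTRs. They were in Bri3bp (r = 0.908 over 36 libraries), C330018D20Rik (r = 0.907 over 40) and Ovca2 (r = 0.882 over 44). The 973 candidates were counted before intergenic sites were left out, and the share of 3′ UTR sites among them was not counted. Without WT BM replicate 1, the library with the highest Blcap level, r was 0.605, 0.428 and 0.774. The Ovca2 site (chromosome 11, 74989826, mm9) was at 23.5% in WT BM replicate 1, 20.3% in WT brain replicate 3 and 10.9% in E861A brain replicate 2, the 3 covered libraries in which Tyr-to-Cys was above 20%. It was at 0.0595% in the WT kidney library in which Tyr-to-Cys was at 12.8%. With Tyr-to-Cys at 0%, the Ovca2 site was at 7.06% in WT thymus replicate 2 and 4.06% in WT spleen replicate 2. In E861A brain replicate 3, it was at 3.06% with Tyr-to-Cys at 0.118%.

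The other conserved recoding genes were taken as a list of 23 genes that includes glutamate receptor subunits, ion channels, filamins and trafficking proteins. In the brain 32 of their sites were tested, and 4 to 10 in each other tissue. In all 8 tissues together, 0 of 76 pairs of site and tissue passed the limma threshold, while over all tested sites 27.0% passed in BM, 17.1% in kidney, 9.75% in liver, 9.15% in spleen and 0 in the other 4 tissues. In spleen this became 79 of 285 sites without WT replicate 3 and 16 of 275 without E861A replicate 3. At an unadjusted p under 0.05 the list had 2 lower and 1 higher of 32 sites in brain (6.93% of all tested sites), 1 lower of 7 in kidney (31.2%), 1 lower of 8 in small intestine (0.484%), and none in BM (32.3%), spleen (21.8%), liver (19.4%), thymus (14.2%) or heart (4.71%). The pairs with an unadjusted p under 0.05, named after their values were seen, were Htr2c, a serotonin receptor, in brain, and Gria3, an AMPA receptor subunit, in kidney and small intestine. Htr2c Ile-to-Val (chromosome X, 143604229) was at 83.2% ± 14.2 in WT and 9.97% ± 5.44 in E861A, and Ile-to-Met (143604231) at 71.2% ± 24.5 and 1.1% ± 1.71 (SD, n = 3; limma adjusted p = 0.13 for both). A further Htr2c Ile-to-Val site (143604241) was at 4.04% ± 0.795 (n = 2) in WT and 26.5% ± 6.23 (n = 3) in E861A (limma adjusted p = 0.282). Gria3 Arg-to-Gly was at 11% ± 8.8 in WT kidney and 1.25% ± 0.484 in E861A kidney (SD, n = 3; limma adjusted p = 0.0777). In small intestine it was at 68.1% ± 45.1 and 3.84% ± 5.42 (SD, n = 2 each; limma adjusted p = 0.559). The median log2 change of the list was −0.037 in brain, 0.0591 in BM, −0.438 in spleen and −0.141 in thymus, against −0.123, −1.3, −0.9 and −1.19 over all tested sites. For heart the list's median was −0.379, for small intestine −0.725, for kidney −0.387 and for liver 0.0552, against −0.828, −1.04, −1.26 and −1.02. The SD of the WT level ranged from 0 to 55.6 percentage points over the 76 pairs, so wide spreads between libraries occurred at these sites as well. Gria2 Gln-to-Arg, in an AMPA receptor subunit, was at 99.8% ± 0.107 in WT brain and 99.9% ± 0.0404 in E861A brain (SD, n = 3). Gria4 Arg-to-Gly, in another such subunit, was at 91.5% ± 5.18 in WT brain and 89.8% ± 3.9 in E861A brain (SD, n = 3). Cog3 Ile-to-Val, in a subunit of a Golgi tethering complex, was at 64.0% ± 3.0 in WT liver and 61.3% ± 1.27 in E861A liver, and Flna Gln-to-Arg, in the actin crosslinker filamin A, was at 41.2% ± 6.93 and 31.7% ± 3.07 (SD, n = 3).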

How the data were processed

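Editing was measured by mmPCR-seq in 48 mouse libraries, 3 per genotype and tissue. For each library the authors deposited 2 counts per site (covering reads and, among them, edited reads) and their ratio as a fraction, with no normalization. The submitters' processing notes name STAR, SAMtools and mm9; versions were not given in the sources used here. The fraction was recomputed from the counts and differed by at most 0.0005. Groups came from the labels. The methods call the replicates independent biological replicates, and their mmPCR-seq section leaves liver out of its tissue list, while their dataset list and the labels include it. The labels do not say whether tissues of 1 number came from 1 mouse.

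A site with 100 reads or fewer in a library was a missing value there. Genotypes were compared with limma 3.58.1 (lmFit, eBayes with a trend, two-sided) in R 4.3.3 with an offset of 0.01, which understates changes of low levels. Libraries had equal weight. The tests were also run on simulated data, with no outcome given here. The simulated spread between libraries was narrower than that at Tyr-to-Cys in WT BM and brain, so the tests were not checked at that spread. Sequences came from the NCBIM37 genome. The alternatives were coverage minimums of 50 and 500 reads (and 10, chosen after seeing the data), coverage in all 3 replicates, an edited limit of 0.05 or none, offsets of 0.001 and 0.05, a quasi-binomial model, eBayes with no trend, levels left untransformed, the criterion in the methods, a fit over all 48 libraries, a replicate block, and each replicate left out.

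All Blcap sites were taken, and a separate rule chose which to name with values. It named recoding sites with more than 100 reads in a library, and other Blcap sites at a level of at least 0.01 in such a library. The other Blcap sites did not reach that level and are described beside the rule, to account for every site. Sites of other genes were the 3 with the highest Pearson r, 1 per gene and without intergenic sites. Others were examples from the conserved list with the highest WT levels in brain and liver. Members and lists were chosen with earlier results of these data known. Pooled tables of the series were not used here.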

Additional observations from a re-analysis of the deposited data

Results flagged for a closer look

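Libraries with 100 reads or fewer at a site were missing values in the main comparisons, and 2 of their values stood out. In E861A brain replicate 1, all 21 of 21 reads at the Tyr-to-Cys site were edited (100%, Wilson 95% interval 84.5 to 100), above both covered WT brain libraries, while the same library had 0 edited reads of 22 at Gln-to-Arg and 0 of 15 at Lys-to-Arg. In WT BM replicate 2, 20 of 36 reads were edited at Tyr-to-Cys (55.6%, interval 39.6 to 70.5), above the 8.33% that 0 of 36 reads would allow, and WT BM replicate 1 was at 56.3%. With a minimum of 10 reads in place of more than 100, the limma log2 change of Tyr-to-Cys was 3.4 in brain (adjusted p = 0.704) and −4.53 in BM (adjusted p = 0.155).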

How the results depend on the processing

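Of 230 recomputed counts of called Blcap sites, 84 had no Blcap site to test (in spleen and heart nearly all, and in brain and the brain interactions many of those without a replicate), so their 0 says nothing. Of the others, 142 stayed at 0 and 4 changed. The fit over all 48 libraries called 1 site in brain (Lys-to-Arg, limma adjusted p = 0.0206, where 217 of all 808 sites passed) and 1 in BM (Tyr-to-Cys, 0.0487, 253 of 538). In the kidney an offset of 0.001 called 1 (Tyr-to-Cys, −4.61, 0.0426, 125 of 532), and leaving out 1 replicate gave 0 to 1 called sites, with 1 only without WT replicate 2 (55 of 484). The criterion in the methods called 0 Blcap sites. Over all sites it called 63 of 808 in brain, 107 of 538 in BM, 95 of 532 in kidney and 95 of 677 in liver. In thymus it called 29 of 529 and in small intestine 7 of 413. In brain, the Gln-to-Arg change turned to 0.773 with an offset of 0.001, and the Tyr-to-Cys change turned to −0.0492 with an offset of 0.05, to −0.872 in the quasi-binomial model and to −0.00903 both untransformed and under the criterion in the methods; the cause was not tested. Adjusted p over the alternatives ran from 0.0389 to 0.703 for kidney Tyr-to-Cys, 0.0487 to 0.691 for BM Tyr-to-Cys and 0.0206 to 0.795 for brain Lys-to-Arg. Samples with the same replicate number did not deviate together in every pair of any tissue (r from −0.119 to 0.238), so the numbers were not taken as pairs. All 3 WT samples correlated best with their own number in spleen and thymus, a hint from the data and not from the design. With a replicate block 0 Blcap sites were called, and over all sites the calls went from 27.0% of 538 to 125 of 511 in BM, and from 91 to 60 in kidney, 66 to 0 in liver, 26 to 30 in spleen, 0 to 4 in thymus and 0 to 1 in small intestine. The brain interactions went from 26 to 0 calls in BM, 15 to 1 in spleen, 14 to 0 in kidney, 12 to 0 in liver, 4 to 0 in thymus and small intestine, and 2 to 0 in heart. Leaving out 1 replicate gave 0 to 30 calls in BM, 1 to 64 in spleen, 0 to 71 in thymus, 0 to 44 in kidney, 0 to 30 in liver, 0 to 11 in small intestine and 0 to 13 in heart. Brain Blcap sites could not be fitted with the block, nor without a covered brain library. Depth limits the brain, BM and small intestine values that rest on 202 reads or fewer.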

Other observations

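In WT brain replicate 2, which was a missing value at these sites in the main comparisons, 1 of 14 reads was edited at Tyr-to-Cys and 1 of 9 at Gln-to-Arg. Both are single reads, below the 21.4% and 33.3% that a count of 0 allows at that coverage.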
